A study of Homo sapiens with 12 samples.

Results

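The hedgehog pathway genes described here are 9 genes chosen for their place in the pathway: the ligands SHH, IHH and DHH, the receptor PTCH1, the transducer SMO, the transcription factors GLI1, GLI2 and GLI3, and the ligand-binding inhibitor HHIP. They were taken by symbol from the RefSeq gene table of GRCh38.p14, the assembly that hg38 denotes, and are 9 of its 20037 protein-coding genes on the 24 chromosomes. For each gene, all peaks that met the gene body or the 5 kb on either side of it (its window) were collected. Chromatin immunoprecipitation with sequencing (ChIP-seq) had been done in H1, a long-established line of human embryonic stem cells, grown in mTESR1 medium. Untreated H1 cells gave 4 groups, YTHDF1, RNF2, H2AK119ub and input. Cells labelled YTHDF1 KD H1, which had received an shRNA against YTHDF1 in the same line and medium, gave a YTHDF1 group and an input group. Neither the shRNA used nor whether the knockdown cells were 1 clone is given in the labels, and the peak lists hold no measure of YTHDF1 RNA or protein, so the knockdown itself was not checked here. Each of the 6 groups had 2 replicate libraries, 8 immunoprecipitated and 4 input libraries in all, and the authors merged the replicates into 1 peak list per immunoprecipitation. There is therefore no spread between replicates for any value that follows, no difference was tested, and sequencing depth is unknown.

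Hedgehog ligands are secreted proteins that bind PTCH1, a membrane receptor that keeps SMO inactive while no ligand is bound. Once released, SMO signals through the primary cilium so that GLI proteins act as transcriptional activators, and GLI1, PTCH1 and HHIP are themselves classical targets of the active pathway. RNF2 is the E3 ligase subunit of Polycomb repressive complex 1 and places H2AK119ub, a single ubiquitin on histone H2A. In embryonic stem cells this complex is known to occupy many silent developmental genes, often over long stretches rich in CG dinucleotides. YTHDF1 is a reader of N6-methyladenosine in RNA, best known in the cytoplasm, and its ChIP-seq peaks mark chromatin recovered with an antibody to it.

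The promoters show how unlike these genes are in sequence where RNF2 lay on them. The 250 bases before the start are printed for SHH and IHH, which had the strongest RNF2 peaks of the 9 genes, and for SMO, which had the only YTHDF1 peak over a promoter, with CG dinucleotides in capitals. The sequences are from RefSeq (GRCh38.p14), written 5′ to 3′ on the strand of the gene, and lie at chr7:155812464-155812713 (minus strand) for SHH, chr2:219060922-219061171 (minus strand) for IHH and chr7:129188383-129188632 (plus strand) for SMO. For PTCH1 the bases before 1 of its 5 starts are printed, at chr9:95509267-95509516 (minus strand), with the core letters of the GLI binding motif in capitals.
SHH: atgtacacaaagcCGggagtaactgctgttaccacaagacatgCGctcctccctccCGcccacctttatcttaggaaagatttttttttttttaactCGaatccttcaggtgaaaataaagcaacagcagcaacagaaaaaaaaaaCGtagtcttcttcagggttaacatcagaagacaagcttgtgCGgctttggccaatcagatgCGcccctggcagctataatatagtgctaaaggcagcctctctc
IHH: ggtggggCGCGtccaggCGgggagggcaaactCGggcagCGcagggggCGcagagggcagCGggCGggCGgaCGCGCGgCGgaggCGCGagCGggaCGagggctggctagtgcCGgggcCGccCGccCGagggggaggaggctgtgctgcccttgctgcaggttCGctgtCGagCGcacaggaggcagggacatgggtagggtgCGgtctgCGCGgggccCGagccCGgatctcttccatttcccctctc
SMO: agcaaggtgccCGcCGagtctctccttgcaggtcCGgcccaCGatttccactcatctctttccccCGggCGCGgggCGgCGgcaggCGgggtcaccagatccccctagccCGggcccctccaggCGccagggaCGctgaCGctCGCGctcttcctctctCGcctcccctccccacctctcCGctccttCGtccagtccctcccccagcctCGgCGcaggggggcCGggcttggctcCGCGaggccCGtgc
PTCH1: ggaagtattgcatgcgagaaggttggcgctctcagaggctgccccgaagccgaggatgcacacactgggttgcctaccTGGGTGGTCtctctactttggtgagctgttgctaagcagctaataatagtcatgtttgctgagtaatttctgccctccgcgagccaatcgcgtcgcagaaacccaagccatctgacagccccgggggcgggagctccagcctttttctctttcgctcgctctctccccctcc
The printed SHH stretch held 7 CG dinucleotides, against 29 in that of IHH and 25 in that of SMO. All 3 lay whole under an RNF2 peak and an H2AK119ub island. The motif GACCACCCA, searched on both strands with no mismatch, was read in PTCH1 as TGGGTGGTC on the strand of the gene, at chr9:95509430-95509438, 172 to 164 bases before the start at position 95509266. Among the 12 promoter entries of the 9 genes (250 bases before to 50 after a start) it was the only match. The same letters were in 50 of 22199 promoter entries of coding genes, 0.225%, and in 0 of the 45 entries of the other pathway genes described further on. A match is a description of letters and not a measured GLI site.

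All 9 genes had an RNF2 peak and an H2AK119ub island in their windows, 7 had a wild-type YTHDF1 peak and 0 had a knockdown YTHDF1 peak. These counts stand beside high backgrounds. RNF2 peaks were in the windows of 73.5% of coding genes (85.1% of those of 50 kb or longer, 68.2% of shorter ones), and H2AK119ub islands in 80.0% (88.3% and 76.3%). Wild-type YTHDF1 peaks were in 59.2% (81.9% and 48.8%), and knockdown YTHDF1 peaks in 0.963% (1.36% and 0.784%). RNF2, H2AK119ub and YTHDF1 together were in the windows of 7 of the 9 genes and of 49.7% of coding genes (70.8% and 40.0%). The genes without YTHDF1 were IHH and DHH, which are among the 5 genes under 50 kb. PTCH1, GLI2, GLI3 and HHIP are the 4 longer ones. The presence of a mark thus sets the 9 genes little apart from the background, and larger differences were in the height and length of the RNF2 peaks and in the extent of H2AK119ub.

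**Figure D1:**
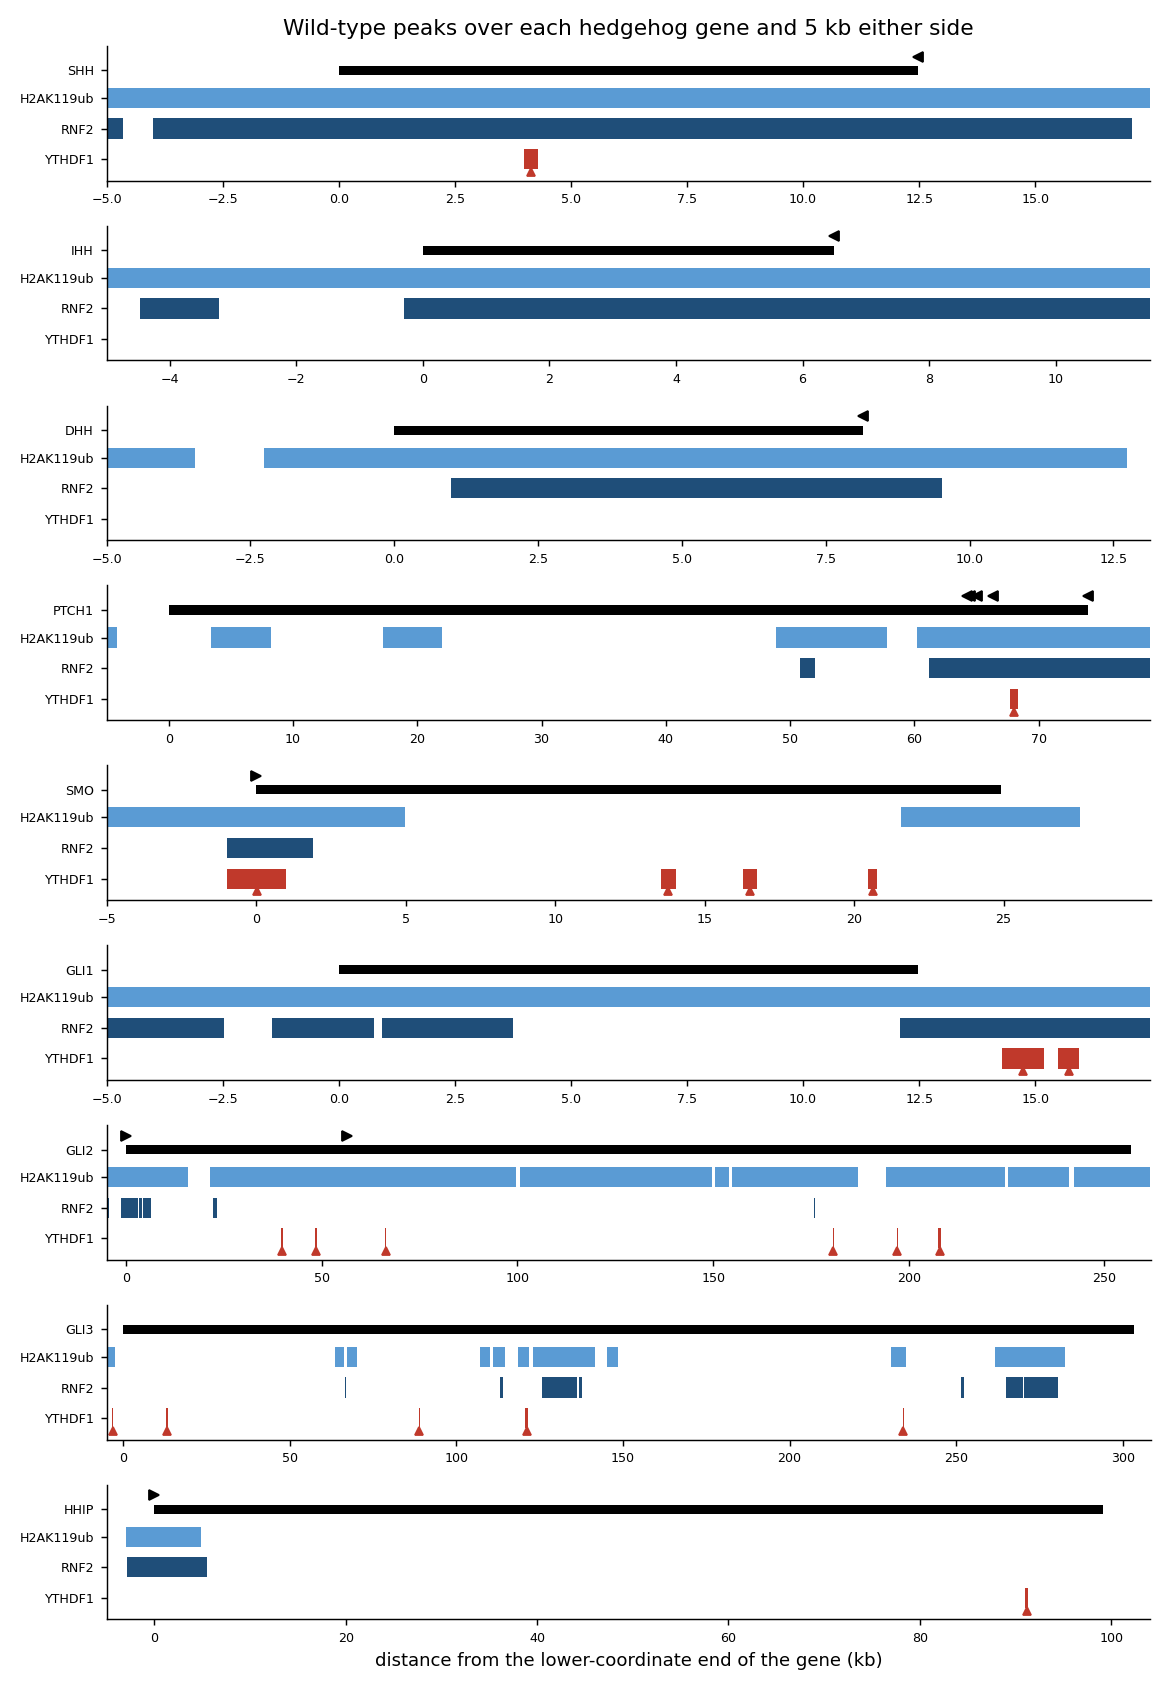
Maps of the 9 genes (black bars, 1 per gene, arrowheads at RefSeq starts where the promoter table gives one) with the wild-type H2AK119ub islands (light blue), RNF2 peaks (dark blue) and YTHDF1 peaks (red, with a triangle at each) in the window of the gene. The x axis is the distance in kb from the lower-coordinate end of the gene, with its own scale in each panel. RNF2 spanned the whole bodies of SHH and IHH, whereas in GLI2 it took up 2.91% of the body and H2AK119ub 93.1%.

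RNF2 peaks at the 3 ligand genes were tall and long. Fold enrichment is the authors' value for each peak of the signal over its background, and its median in the RNF2 list of 29310 peaks was 3.74. SHH, which patterns the neural tube and limb, lay from 155799980 to 155812463 on chromosome 7, and a single RNF2 peak of 35.9-fold and 21.1 kb (155795971 to 155817056) covered it from end to end. The H2AK119ub island over it was 31.8 kb long (155792601 to 155824400), and the whole SHH window lay under that island. By its strongest RNF2 peak SHH stood above 97.8% of coding genes, and by the share of its window under RNF2, 95.4%, above 98.7%.

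IHH, the ligand that controls growth-plate cartilage, lay from 219054424 to 219060921 on chromosome 2. Its RNF2 peak of 32.4-fold and 12.4 kb (219054120 to 219066532) also covered the whole gene body, as well as the noncoding genes MIR3131 and LOC124906120. RNF2 took up 79.1% of the IHH window, and an H2AK119ub island of 22.2 kb (219048401 to 219070600) covered all of it. DHH, the ligand of Schwann and Sertoli cells, lay from 49086656 to 49094801 on chromosome 12. A peak of 20.8-fold and 8.52 kb (49087649 to 49096172) covered 87.8% of the DHH body and met its antisense gene DHH-AS1, and RNF2 took up 47.0% of the window. Its H2AK119ub island of 15.0 kb (49084401 to 49099400) covered the whole gene body, and with a second island 91.2% of the window was covered. Each of the 3 ligand genes thus had its body wholly under H2AK119ub and its start inside the RNF2 peak.

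PTCH1, the receptor, lay from 95442980 to 95516971 on chromosome 9 and was covered in part. An RNF2 peak of 25.0-fold and 17.9 kb (95504155 to 95522081) held all 5 RefSeq starts of PTCH1, between positions 95507199 and 95516971, and the printed stretch with the motif. The matching H2AK119ub island was 21.0 kb long (95503201 to 95524200). RNF2 took up 18.9% of the gene body and H2AK119ub 43.7%, so most of the PTCH1 body towards its lower-coordinate end had no RNF2. A second RNF2 peak, of 2.92-fold and 1.19 kb, lay inside the gene.

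HHIP, a membrane and secreted protein that binds the ligands and limits their action, lay from 144646156 to 144745271 on chromosome 4. A single RNF2 peak of 13.5-fold and 8.42 kb (144643274 to 144651692) lay over its start and met HHIP-AS1. The H2AK119ub island there was 7.8 kb long (144643201 to 144651000), which made HHIP the only 1 of the 9 genes whose island was shorter than its strongest RNF2 peak, 0.926 times its length. In the list, the median of this ratio was 5.73 over RNF2 peaks that met an island. Among the 962 such peaks of 8 kb or longer it was 1.26, and 30.1% of them had an island shorter than the peak. The HHIP ratio is thus not unusual for a long RNF2 peak, and past its first few kb the 99116 bp HHIP body carried neither mark.

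SMO, the seven-pass membrane transducer, had the weakest of these peaks. It lay from 129188633 to 129213545 on chromosome 7, and its single RNF2 peak over the start was 4.13-fold and 2.87 kb (129187662 to 129190527). An island of 11.4 kb (129182201 to 129193600) lay over the same start, 3.98 times as long as the RNF2 peak. SMO stood above 48.7% of coding genes by its strongest RNF2 peak, near the middle of all genes, and it was the only 1 of the 9 with no island at the highest score in the H2AK119ub list, 1000. That score was reached by 11 of the 31 islands in the 9 windows, spread over the other 8 genes, and by 8.06% of all islands. The share of coding genes with such an island was not counted.

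The 3 GLI genes encode zinc-finger transcription factors, of which GLI1 acts as an activator and GLI3 largely as a repressor. GLI1 lay from 57459785 to 57472268 on chromosome 12, with 4 RNF2 peaks in its window. The strongest, 8.38-fold and 7.38 kb (57471871 to 57479253), crossed the higher-coordinate end of GLI1 and met the neighbouring gene ARHGAP9. A peak of 4.98-fold (57458354 to 57460554) crossed the lower end, one of 5.61-fold (57460712 to 57463541) lay inside the gene, and one of 3.30-fold lay outside it. All 4 lay in a single H2AK119ub island of 34.6 kb (57450601 to 57485200), which covered the GLI1 window whole. SHH, IHH and GLI1 were among 1392 coding genes with the whole window under H2AK119ub.

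GLI2 showed the widest gap between the 2 marks. It lay from 120735868 to 120992653 on chromosome 2, and 93.4% of its 266786 bp window was under H2AK119ub but 3.46% under RNF2. The 8 islands were 3.6 to 78.0 kb long, and the longest (120757401 to 120835400) took in the second RefSeq start at 120792281. The first start, at 120735868, lay under an RNF2 peak of 4.25-fold and 4.47 kb (120734490 to 120738963), and the strongest RNF2 peak, 5.51-fold and 2.02 kb (120740189 to 120742212), lay just inside the gene. At the second start there was no RNF2 peak, the nearest being 33075 bp away. Of the 1399 coding genes of 200 kb or longer, 6 (0.429%) had 90% or more of the window under H2AK119ub, and GLI2 was the 4th of all 1399 by that share and the 143rd by its share under RNF2. The medians of that length class were 2.94% for H2AK119ub and 1.002% for RNF2. The class of 200 kb and the 90% limit were chosen after the GLI2 values had been seen.

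In the GLI3 window the RNF2 peaks and the long islands lay inside the gene and not over its outer RefSeq ends. GLI3 lay from 41960949 to 42264268 on chromosome 7. The RNF2 peak nearest to its lower end was 17549 bp away, outside the gene and its window. The first RNF2 peak inside the gene began 66537 bp from the lower end, and the last ended 22734 bp from the higher end. A short island of 4.2 kb (41954401 to 41958600) lay outside the gene, 2349 bp from the lower end, with a YTHDF1 peak on it. Near the middle, an RNF2 peak of 7.92-fold and 8.40 kb (42086539 to 42094933) lay in an island of 18.8 kb (42083801 to 42102600). Towards the higher end, peaks of 5.97-fold (42226046 to 42231145) and 7.57-fold (42231338 to 42241534) lay side by side in an island of 21.0 kb (42222601 to 42243600). GLI3 was 142nd of the 1399 long genes by its share under H2AK119ub, 21.1%, and 24th by its share under RNF2, 9.05%. Its order is thus the other way round from that of GLI2. The promoter table used here gives no start for GLI1 or GLI3, so these places are given by the ends of the genes, and exons and introns were not used here. Whether a GLI3 start lay under one of the RNF2 peaks inside the gene was therefore not examined.

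**Figure D2:**
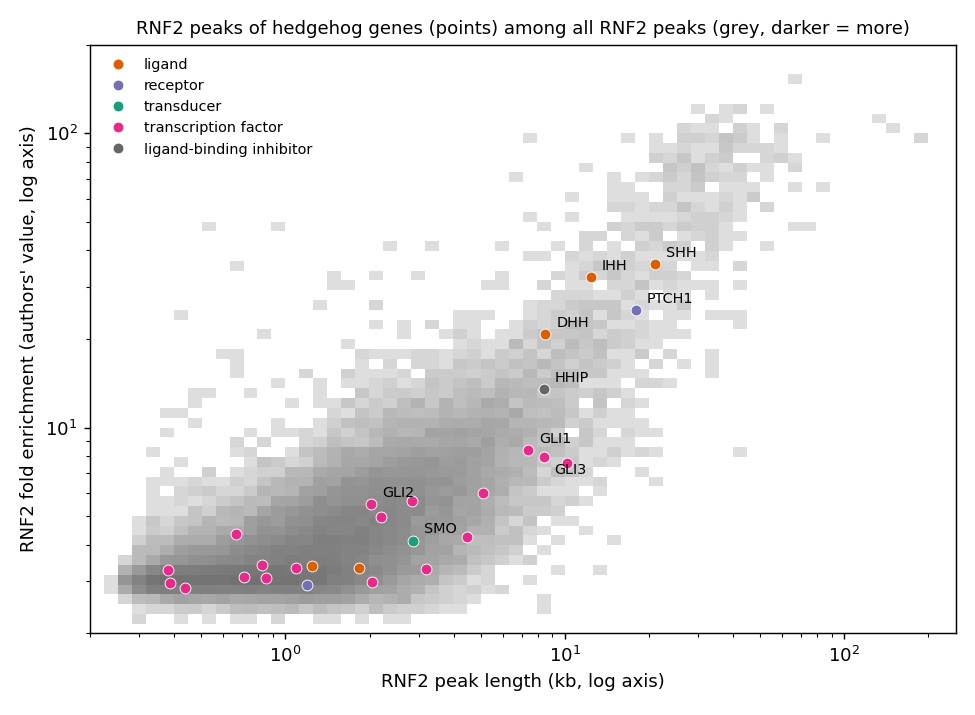
Length (kb, log axis) and the authors' fold enrichment (log axis) of the 27 RNF2 peaks in the windows of the 9 genes (points, coloured by role, the strongest of each gene labelled), over all 29310 RNF2 peaks (grey, darker where there are more). SHH, IHH, PTCH1, DHH and HHIP lie at 13.5- to 35.9-fold, and the labelled peaks of SMO and the 3 GLI genes at 4.13- to 8.38-fold.

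By the strongest RNF2 peak the order was SHH, IHH, PTCH1, DHH, HHIP, GLI1, GLI3, GLI2 and SMO. With 1 merged list, it cannot be said which neighbours in this order differ beyond replicate error. The place of GLI1 rests on the peak that met ARHGAP9, under which only 3.19% of the GLI1 body lay. Its strongest RNF2 peak wholly inside the gene was 5.61-fold, below the 7.92-fold of GLI3. An RNF2 peak of 20-fold or more was in the window of 4 of the 9 genes and of 3.51% of coding genes. At 10-fold or more the counts were 5 of 9 and 9.30%, and for a peak of 8 kb or longer 6 of 9 and 5.38%. These limits, too, were chosen after the values had been seen. The ligand genes, the receptor and the inhibitor made up the 5 genes past 10-fold, and GLI3 joined them past 8 kb. Over the 9 genes the median of the strongest RNF2 fold enrichment was 13.5, against 4.21 over all coding genes, where a gene with no peak counted as 0. The median length of the longest RNF2 peak was 8524 bp, against 1528 bp, and that of the longest H2AK119ub island 21000 bp, against 6200 bp.

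In base pairs, RNF2 covered 123.9 kb of the 887739 bp of the 9 windows, 14.0%, and H2AK119ub 455.4 kb, 51.3%. The median share over the 9 genes was 22.6% for RNF2 and 91.2% for H2AK119ub, against 3.12% and 16.0% over all coding genes. At least 90% of the window was under H2AK119ub for SHH, IHH, DHH, GLI1 and GLI2, 5 of the 9 genes, and for 12.9% of coding genes. HHIP, at 7.15%, was the lowest of the 9 for H2AK119ub, below the median of all coding genes. GLI2 was the lowest for RNF2. Both are among the 4 genes of 50 kb or longer, and the part of gene length in these shares was not tested. Of the 27 RNF2 peaks in these windows 25 met an island, the 2 exceptions both being in GLI3, and of the 31 islands 15 met an RNF2 peak. Over the whole lists, 85.1% of RNF2 peaks met an island and 39.9% of islands met an RNF2 peak, shares not far from those at the 9 genes. H2AK119ub islands come in steps of 200 bp and have a median length of 4600 bp over the list, against 1347 bp for RNF2 peaks, and the part of this in the wider H2AK119ub cover was not tested.

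**Figure D3:**
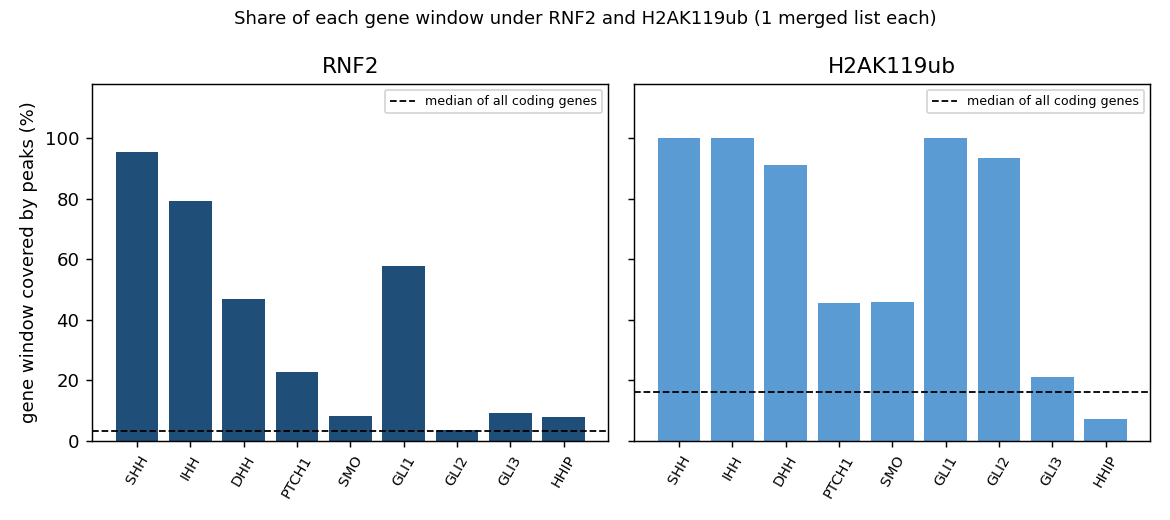
Share of each gene window (gene body and 5 kb either side, in %) under RNF2 peaks (left) and H2AK119ub islands (right), 1 bar per gene from 1 merged list each, so without error bars. The dashed lines are the medians of all coding genes, 3.12% and 16.0%. The SHH, IHH and GLI1 windows are at 100% for H2AK119ub, and GLI2 stands at 93.4% there but at 3.46% for RNF2.

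At the promoters themselves, RNF2 and H2AK119ub were present at all 7 of the genes with a RefSeq start in the promoter table, against 66.0% and 72.9% of the 15843 coding genes with one. Those 7 are SHH, IHH, DHH, PTCH1, SMO, GLI2 and HHIP. For GLI1, both ends of the gene lay under both marks, and for GLI3 neither end lay under either. An end of a gene need not be a start in use, so this does not show a GLI3 promoter free of either mark. A wild-type YTHDF1 peak lay over 1 of the 7 promoters, that of SMO, and over those of 16.3% of coding genes.

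CG content varied widely among promoters that RNF2 covered. Over the 300 bases of an entry, SHH had 7 CG dinucleotides at 43.3% GC, and DHH 12 at 61%, against medians of 21 and 62.3% over coding promoters. IHH had 37 at 76.3% GC, HHIP 36 at 72.7%, SMO 29 at 72% and the first start of GLI2 31 at 68.3%. The second start of GLI2 had 7 at 46.3% GC, and it was the only 1 of the 12 entries with no RNF2 peak. The 5 entries of PTCH1 had 13 to 27. Counting an entry as CG-rich at 50% GC or more with at least 0.6 times the CG dinucleotides its C and G content would give, 8 of the 12 entries were CG-rich, near the 59.98% of all coding promoters that were. Among coding promoters, 86.6% of the CG-rich and 24.2% of the others lay under RNF2. The second start of GLI2 fell outside the CG-rich class. So did SHH, DHH and the PTCH1 entry at 95509266, which still lay under RNF2 peaks of 35.9-, 20.8- and 25.0-fold. Those peaks were far longer than the 300 bases, and the sequence around the promoters was not analysed here.

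**Figure D4:**
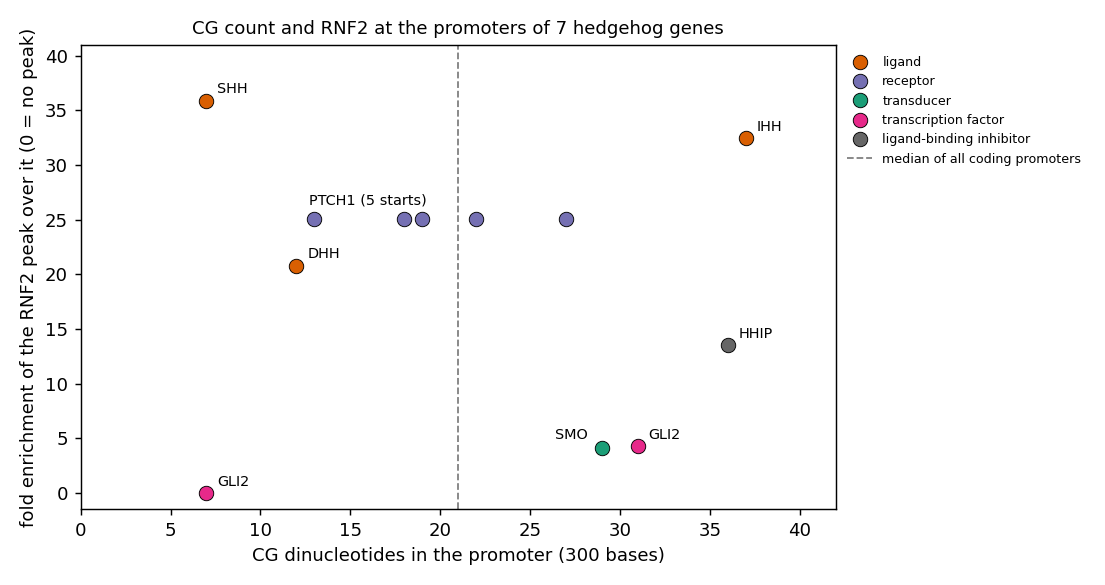
CG dinucleotides in the 300-base promoter entry (x axis) against the authors' fold enrichment of the RNF2 peak over it (y axis, 0 where no peak lay there) for the 12 entries of 7 genes, coloured by role. The dashed line is the median of all coding promoters, 21. SHH, with 7, and IHH, with 37, lie at opposite sides of that line with RNF2 peaks of 35.9- and 32.4-fold.

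Wild-type YTHDF1 peaks at these genes were small and weakly called. There were 20 in the windows of 7 genes, 265 to 1985 bp long, with fold enrichments from 2.80 to 3.54 and a −log10 of the q-value (higher means a stronger call) from 1.58 to 3.87. Their medians were 2.95 and 2.04, against 2.89 and 1.87 over the 44498 peaks of the list. At a −log10 q of at least 2 there were 10 of the 20, in the windows of 6 of the 9 genes and of 37.0% of coding genes. At 4 or more there were 0, in the windows of 0 of the 9 genes and of 4.60% of coding genes. YTHDF1 covered 1.25% of the 9 windows, with a median of 0.838% over the genes against 0.605% over all coding genes. The peaks were spread over their list, with 8.29% of it scoring lower than the weakest, at SMO, GLI2 and GLI3, and 97.4% lower than the strongest, at SMO.

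The strongest and longest of the 20 lay over the SMO start, from 129187662 to 129189646, with 3.54-fold and a −log10 q of 3.87. At 1985 bp it was the 28th longest YTHDF1 peak of the list, and SMO ranked 36th of 20037 coding genes by the longest YTHDF1 peak in the window. It began on the same base as the RNF2 peak over that start, which was so for 2 YTHDF1 peaks in the list. SMO, the gene with the lowest RNF2 peak of the 9, thus had the highest YTHDF1 peak. Its other 3 YTHDF1 peaks, with −log10 q of 2.49, 1.87 and 1.58, lay inside the gene on neither mark.

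At SHH, a YTHDF1 peak of 285 bp (155803979 to 155804263) lay inside the gene, 8200 bp downstream of the start, under the long RNF2 peak. At PTCH1, one of 635 bp (95510638 to 95511272) lay inside the gene, under the RNF2 peak that held the starts. It was 1372 bp upstream of the start at 95509266 and 5699 bp downstream of the outermost start at 95516971. The SHH and PTCH1 peaks both had 3.23-fold and a −log10 q of 2.49, values that 1621 peaks of the list share, so they carry no rank between these 2 genes. GLI1 had a pair of peaks beyond its higher end, of 901 bp (57474077 to 57474977, 2.95-fold, −log10 q 1.87) and 452 bp (57475281 to 57475732, 2.94-fold, −log10 q 2.18). Both lay under the RNF2 peak that met ARHGAP9, and there was no YTHDF1 peak in the GLI1 body.

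Inside GLI2 lay 6 YTHDF1 peaks of 2.81- to 3.26-fold, all 6 on H2AK119ub islands and 0 on RNF2. The GLI3 window had 5, of 2.80- to 3.09-fold, of which 3 were on an island and 0 on RNF2. HHIP had a single peak (144737160 to 144737477, 2.92-fold, −log10 q 1.95) on neither mark, starting 91004 bp downstream of the start. IHH and DHH had none in their windows. The nearest lay 9511 bp from IHH (219070432 to 219070723, 2.81-fold) and 6764 bp from DHH (49101565 to 49102128, 2.94-fold).

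Of the 20 YTHDF1 peaks, 5 met an RNF2 peak, 25% with an exact (Clopper-Pearson) 95% interval of 8.66% to 49.1%, and 12.7% of all YTHDF1 peaks did. H2AK119ub islands were met by 14 of the 20, 70% with an interval of 45.7% to 88.1%, against 28.3% of all YTHDF1 peaks. The intervals cover counting error only, and peaks of 1 gene are not independent. The 9 windows, pooled, were themselves 14.0% under RNF2 and 51.3% under H2AK119ub. Their median shares per gene were 22.6% and 91.2%, against 3.12% and 16.0% over coding genes. The part of that cover in these overlaps was not tested. The 14 came from 6 genes, with 6 of the peaks in GLI2 alone, and 6 of the 20 lay on neither mark. RNF2 was met at SHH, PTCH1, SMO and GLI1.

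**Figure D5:**
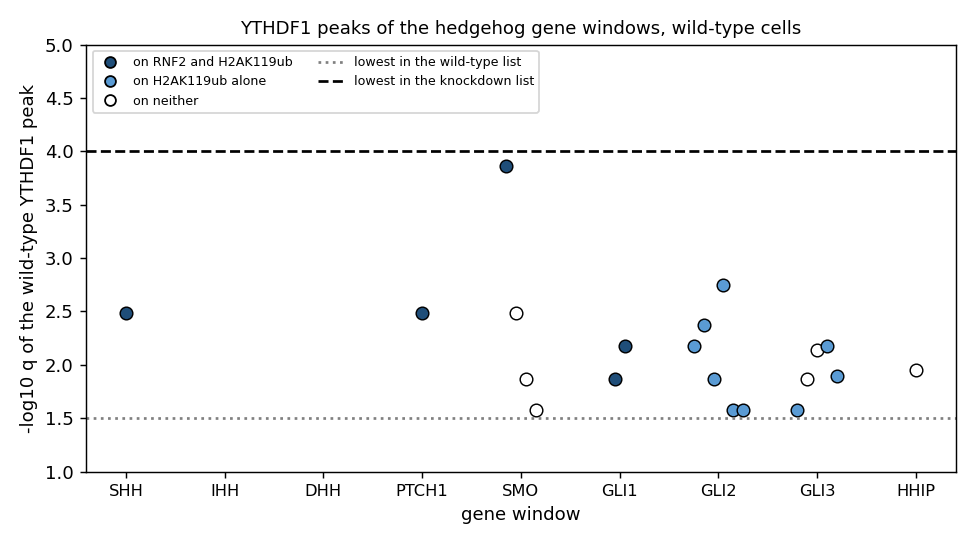
The −log10 q (y axis, the authors' value) of each of the 20 wild-type YTHDF1 peaks, by gene window (x axis, points of 1 gene spread sideways), filled by the marks the peak met. The dotted line is the lowest value in the wild-type list, 1.502, and the dashed line the lowest in the knockdown list, 4.01. All 20 points lie under the dashed line, the SMO promoter peak nearest to it at 3.87, and IHH and DHH have no point.

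In the YTHDF1 knockdown, 0 of the 9 genes had a YTHDF1 peak in the window, where 7 had one in wild-type cells. The nearest knockdown peak lay 1.07 Mb from PTCH1, 5.54 Mb from SMO, 5.77 Mb from IHH and 9.81 Mb from GLI2. From SHH it lay 14.8 Mb away, from GLI3 15.6 Mb, from GLI1 19.1 Mb, from HHIP 19.3 Mb and from DHH 23.9 Mb. The knockdown list held 226 peaks in all, so peaks of that list were rare near any gene. Its lowest −log10 q was 4.01, above the −log10 q of every one of the 20 wild-type peaks at these genes. A peak as weak as those in wild-type cells could thus not have appeared in the knockdown list as deposited, and whether YTHDF1 signal fell at SHH, SMO or any other of the 9 genes cannot be read from these lists. RNF2 and H2AK119ub in knockdown cells were not analysed here.

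SHH is also known for enhancers far from the gene, among them the limb enhancer ZRS in an intron of LMBR1. The stretch between SHH and LMBR1, 856.5 kb on chromosome 7 (155812464 to 156669011), had 5 RNF2 peaks and 1.46% covered, the peak over SHH included. The windows of coding genes of 200 kb or longer had medians of 1.002% for RNF2 and 2.94% for H2AK119ub. Other stretches between genes were not measured. The next strongest RNF2 peak, 21.4-fold and 3.66 kb (156639064 to 156642722), lay at the lower end of RNF32, the coding gene that reaches into the stretch. The other 3 were of 7.37-, 3.15- and 3.10-fold. H2AK119ub took up 10.4% in 18 islands and YTHDF1 1.05% in 20 peaks, the strongest of them 3.37-fold with a −log10 q of 2.85. The LMBR1 body itself, 224.2 kb, had 1 RNF2 peak of 5.80-fold, 1 island covering 1.15% and 2 YTHDF1 peaks. No knockdown YTHDF1 peak lay in either. The RNF2 domain of SHH thus ended within 5 kb upstream of its start, and no RNF2 peak of like height lay between it and RNF32.

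By the shares of the window under RNF2, H2AK119ub and wild-type YTHDF1, each as a percentile over all coding genes, the 5 genes nearest to SHH were NR2F2, CDKN2A, RTN4RL2, RTBDN and ESPN. Their distances over the 3 lists ran from 1.84 percentile points for NR2F2 to 3.38 for ESPN. NR2F2 (100% under RNF2, strongest peak 84.2-fold) and CDKN2A (99.6%, 74.1-fold) exceeded SHH in RNF2 height. RTBDN, 3.10 points away, had only 43.7% of its window under RNF2 and a strongest peak of 6.25-fold, so nearness in these percentiles does not mean equal RNF2 cover or height.

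The other genes of the pathway were taken as a list of 28: 3 of ligand processing and release, 5 co-receptors and a second receptor, 12 of transduction in cilium and cytoplasm and 8 kinases and proteins that degrade GLI proteins. Of the 28, 26 had an RNF2 peak, 28 an island, 25 a wild-type YTHDF1 peak, 23 all of these and 0 a knockdown YTHDF1 peak. The shares of all coding genes were 73.5%, 80.0%, 59.2%, 49.7% and 0.963%, in that order. Among coding genes of 50 kb or longer, as 21 of the 28 were, they were 85.1%, 88.3%, 81.9%, 70.8% and 1.36%. EFCAB7, a ciliary protein, and GSK3B, a kinase that phosphorylates GLI proteins, had no RNF2, and MOSMO, CSNK1A1 and SPOP no YTHDF1. None lacked both RNF2 and H2AK119ub. Their median share of the window was 3.02% under RNF2 and 13.5% under H2AK119ub, close to the medians of all coding genes and below those of the 9 genes. Gene lengths differ, with 21 of the 28 but 4 of the 9 at 50 kb or longer. Among coding genes of 200 kb or longer the medians were 1.002% and 2.94%, and the part of length in these shares was not tested. The median strongest RNF2 peak was 5.11-fold.

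Past 10-fold in RNF2 were 3 of the 28, GAS1, LRP2 and SPOP, a share near the 9.30% of coding genes. GAS1, a membrane co-receptor that helps SHH bind PTCH1, had a peak of 26.2-fold and 11665 bp over a short gene, and a YTHDF1 peak of 3.65-fold with a −log10 q of 3.66. LRP2, an endocytic receptor, had 18.5-fold, and SPOP, an adaptor for degradation of GLI proteins, 10.8-fold. The value of GAS1 lay between those of PTCH1 and IHH. A YTHDF1 peak with a −log10 q of at least 2 was in the windows of 22 of the 28, and of 37.0% of coding genes (56.8% of those of 50 kb or longer, 27.9% of shorter ones). Among them were HHAT and SCUBE2 in ligand processing and release, CDON, GAS1 and LRP2 among the co-receptors, and KIF7, GPR161, EVC, EVC2, EFCAB7, IQCE, STK36, ULK3, TULP3 and MGRN1 in transduction. PRKACA, PRKACB, GSK3B, GRK2, CUL3 and BTRC, among the kinases and degradation proteins, also had one. EVC and EVC2 lie side by side and share peaks. MGRN1, a ubiquitin ligase that acts on SMO, had the only peak past a −log10 q of 4, with 3.78-fold and 4.13.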

How the data were processed

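The data are 4 peak lists from ChIP-seq of 12 libraries, made by the authors from merged replicates on hg38. The peak callers MACS2 2.1.0 and SICER 1.1, the aligner Bowtie2 2.2.5, and Trimmomatic 0.35, Picard and SAMtools 1.3.1 are named in the submitters' processing notes. What each was run on, and the caller of each list, are not given in the sources used here. Each peak of the YTHDF1, RNF2 and knockdown YTHDF1 lists carries a deposited fold enrichment (a ratio), a deposited −log10 of the q-value (p column unused), a summit offset and a deposited score. H2AK119ub islands carry only a deposited score, at most 1000, whose scale is not stated. Their ends were read as the last base. The lists carry no read totals, so depth is unknown.

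Peaks and windows overlapped where they shared at least 1 bp. Coordinates are 1-based. Gene positions and promoters (250 bases before to 50 after a start) came from RefSeq tables of GRCh38.p14. All 9 genes were matched by symbol, 7 of them in the promoter table. Counts stand beside the same counts over all coding genes, and the length classes divide at 50 kb. Scripts ran in Python 3.11.15 with numpy 2.4.6, pandas 2.3.3, scipy 1.17.1 and matplotlib 3.10.9. Overlap and coverage were tested on simulated intervals, with 0 of 200 windows wrong.

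The 9 genes, the list of 28 and the settings were chosen with earlier results of these data known. The rule for naming took every one of the 9 genes. Of the 28 it took those with the 3 highest RNF2 folds, with a YTHDF1 peak of −log10 q of at least 2, or with neither RNF2 nor H2AK119ub. It also took the 5 coding genes nearest to the gene with the longest RNF2 peak, and neighbours under the same peak. MOSMO, CSNK1A1 and RNF32 were named outside this rule, with their values known, and 1 gene that the rule took is not reported here. Alternatives were windows of the gene body alone or with 2 or 50 kb, midpoints, an overlap of 50%, the better-scoring 50% of each list by its score, a −log10 q of at least 4, and promoters of 2 or 5 kb either side of the start.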

Additional observations from a re-analysis of the deposited data

How the results depend on the processing

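No paired analysis was possible because the authors merged the replicates into 1 list per group, and for the same reason no replicate could be left out. Of 49 alternative counts, 41 stayed within 1.5 times the reported count and 8 did not. For YTHDF1 peaks on RNF2 or H2AK119ub the counts alone were compared, although the number of YTHDF1 peaks changed with some settings. Some of the 41 could not have moved. A −log10 q of at least 4 removes no RNF2 or knockdown peak, as the lowest values there were 4.006 and 4.01. H2AK119ub islands carry no q-value, and narrower settings cannot change a knockdown count of 0. The other 9 alternatives are of window shares, which have no replicate spread to be read against. At a −log10 q of at least 4, 0 of the 9 genes had a wild-type YTHDF1 peak and 0 had all 3 lists, against 7 and 7. YTHDF1 peaks on RNF2, 5 of 20, became 3 of 17 in the gene bodies alone and 13 of 39 with 50 kb either side. Those on H2AK119ub, 14 of 20, became 9 of 16 in the better-scoring 50% of each list and 31 of 39 with 50 kb. With the ends of GLI1 and GLI3 included, promoters under YTHDF1 rose from 1 of 9 to 3 within 2 kb of the start and 4 within 5 kb. The share of the windows under RNF2, 14.0%, became 10.95% in gene bodies, 11.1% with 50 kb and 12.6% in the better-scoring 50%. For H2AK119ub, 51.3% became 48.6%, 44.9% and 47.6%, and for YTHDF1, 1.25% became 1.06%, 1.35% and 1.07%. With unknown depth and 1 list per group, a missing peak does not show that signal was absent, and no difference between genes or between wild-type and knockdown cells has a measured error.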
